A study of Homo sapiens with 14 samples.

Results

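The genes described here encode the cell surface receptors of the insulin-like growth factors (IGFs) and of insulin, and the secreted proteins that bind IGFs. They were chosen by name as IGF1R, INSR, IGF2R and IGFBP2 to IGFBP7, 9 of the 11963 genes that the array names, and every probe set that the array annotation pairs with 1 of them was taken. This gave 20 probe sets of the 19064 that name 1 gene, 7 for the receptors and 13 for the binding proteins. A total of 13 of the 20 passed the filter on low signals, a mean of at least 6.57 on the log2(signal + 16) scale over all arrays, and these cover 6 genes. IGF1R kept 2 of 3 probe sets, INSR 1 of 2, IGF2R 2 of 2, IGFBP5 5 of 5, IGFBP6 1 of 1 and IGFBP7 2 of 3. The probe sets of IGFBP2, IGFBP3 and IGFBP4 all fell below the filter.

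RNA was measured on 14 Affymetrix arrays in U2OS, a human osteosarcoma cell line, carrying ER-E2F1, in which the cell cycle factor E2F1 is joined to part of the estrogen receptor and becomes active when 4-hydroxytamoxifen (OHT) is added. Cells received shFOXO33 or shFOXO707, lentiviral hairpins that each target both FOXO1 and FOXO3, or a scrambled hairpin (sh-scr), were moved to serum-free medium after 24 h, and 24 h later were given 20 nM OHT for 6 h or left without it (con). There were 2 arrays of shFOXO33 cells with OHT, 2 of shFOXO707 cells with OHT, 4 of scrambled cells with OHT, 1 of shFOXO33 cells without OHT, 1 of shFOXO707 cells without OHT and 4 of scrambled cells without OHT. All groups carried ER-E2F1 and all were infected and starved of serum, so an effect of OHT apart from ER-E2F1 has no control here, and every value comes from 1 cell line. No label states that the replicates came from different cultures, and the p-values cover the spread between these arrays, which may be technical.

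IGF1R and INSR are related receptor tyrosine kinases: bound by IGF1, IGF2 or insulin, they phosphorylate adaptor proteins such as IRS1, and the PI3K and AKT kinases that follow hold FOXO transcription factors out of the nucleus. IGF2R, the cation-independent mannose 6-phosphate receptor, has no kinase; it takes up IGF2 for breakdown and sorts lysosomal enzymes. IGFBP2 to IGFBP6 bind IGFs with high affinity and either keep them from the receptors or present them, while IGFBP7 binds them weakly. IGFBP5 is abundant in bone and its cells, IGFBP6 prefers IGF2, and FOXO factors are described as activators of INSR transcription in starved cells.

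The promoters below are those of the receptor genes that were higher with OHT and of the binding protein genes that were lower in shFOXO33 cells. They are RefSeq sequences of assembly GRCh38.p14, read from 250 bases before to 50 bases after the annotated gene start, with any motif match in capitals. RefSeq promoters matched 8 of the 9 genes; that of IGFBP7 was not used here.
INSR (chr19:7294365-7294664, minus strand): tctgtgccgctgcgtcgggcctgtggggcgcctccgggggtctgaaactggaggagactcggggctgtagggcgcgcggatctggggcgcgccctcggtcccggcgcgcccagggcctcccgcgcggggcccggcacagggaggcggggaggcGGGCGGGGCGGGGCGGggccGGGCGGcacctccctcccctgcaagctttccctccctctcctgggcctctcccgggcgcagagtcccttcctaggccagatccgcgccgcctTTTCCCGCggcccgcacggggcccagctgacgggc
IGF1R (chr15:98648289-98648588, plus strand): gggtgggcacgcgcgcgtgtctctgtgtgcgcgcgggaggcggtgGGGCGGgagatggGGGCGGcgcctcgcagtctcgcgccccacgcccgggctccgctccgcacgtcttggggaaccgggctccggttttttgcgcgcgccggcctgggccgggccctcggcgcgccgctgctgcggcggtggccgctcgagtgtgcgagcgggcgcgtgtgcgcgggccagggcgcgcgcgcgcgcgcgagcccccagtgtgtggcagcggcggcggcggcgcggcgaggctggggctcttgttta
IGFBP5 (chr2:216695500-216695799, minus strand): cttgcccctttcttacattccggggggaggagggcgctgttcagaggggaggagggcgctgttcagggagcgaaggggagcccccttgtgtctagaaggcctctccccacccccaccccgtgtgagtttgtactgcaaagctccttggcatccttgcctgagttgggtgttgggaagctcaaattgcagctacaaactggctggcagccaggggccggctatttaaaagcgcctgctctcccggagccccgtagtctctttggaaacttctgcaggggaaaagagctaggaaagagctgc
IGFBP6 (chr12:53097417-53097716, plus strand): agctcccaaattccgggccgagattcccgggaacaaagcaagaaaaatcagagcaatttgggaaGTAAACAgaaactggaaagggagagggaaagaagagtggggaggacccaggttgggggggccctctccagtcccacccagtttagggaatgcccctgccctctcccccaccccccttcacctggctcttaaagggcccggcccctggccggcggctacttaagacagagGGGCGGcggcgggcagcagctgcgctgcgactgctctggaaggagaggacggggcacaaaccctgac

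Motifs were searched as fixed letters on both strands. The E2F letters TTTGGCGC, TTTGCCGC, TTTCGCGC or TTTCCCGC stood in 3.33% of 27305 RefSeq promoters and in 1 of the 8 promoters searched, that of INSR, as TTTCCCGC. The FOXO letters GTAAACA stood in 3.41% of promoters and in 1 of the 8, that of IGFBP6. The GC box letters GGGCGG stood in 44.6% of promoters and in 7 of the 8, with 4 matches for INSR, of which 3 overlap each other, 2 for IGF1R and 1 for IGFBP6. The IGFBP5 window held none of these and no TATAAA, which 12% of promoters hold. A match is a run of letters, not a measured binding site, and a window without one says nothing about the factor.

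With OHT both hairpins lowered their targets, shFOXO33 further than shFOXO707. FOXO3 (probe set 204131_s_at) averaged 307 ± 25 (SD, n = 2) with shFOXO33 and OHT and 809.6 ± 62.0 (SD, n = 2) with shFOXO707 and OHT, against 1793 ± 45.2 (SD, n = 4) in scrambled OHT cells. FOXO1 (202724_s_at) averaged 163 ± 31.9 (SD, n = 2) and 236 ± 25.8 (SD, n = 2) in those shFOXO33 and shFOXO707 cells, against 501 ± 32.7 (SD, n = 4) in scrambled OHT cells. OHT itself raised both genes in scrambled cells, by 1.96 for FOXO3 and 2.12 for this FOXO1 probe set (limma, adjusted p = 3.67e-12 and 2.70e-10). Scrambled cells without OHT averaged 449 ± 42.7 (SD, n = 4) for FOXO3 and 103 ± 8.45 (SD, n = 4) for FOXO1. With OHT, FOXO3 in shFOXO707 cells and FOXO1 with both hairpins lay above those untreated averages, and FOXO3 in shFOXO33 cells lay below. The limma difference from scrambled cells with OHT was -2.49 for FOXO3 and -1.54 for FOXO1 with shFOXO33 (adjusted p = 3.87e-11 and 6.14e-07), and -1.13 and -1.04 with shFOXO707 (adjusted p = 2.01e-07 and 4.45e-05). The direct difference, shFOXO707 minus shFOXO33, was 1.35 for FOXO3 and 0.50 for this FOXO1 probe set (limma, adjusted p = 8.27e-08 and 0.0260). Without OHT, FOXO3 differed from scrambled cells by -1.59 with shFOXO33 and -0.68 with shFOXO707 (limma, adjusted p = 1.58e-07 and 0.000518). FOXO1 there had -0.87 and -0.82 with shFOXO33 in 202724_s_at and 202723_s_at (adjusted p = 0.00263 and 0.0175) and -1.11 and -0.93 with shFOXO707 (adjusted p = 0.000415 and 0.00887), so its order between the hairpins was turned; that difference without OHT was not tested. Array medians lay between 115 and 120.1 with OHT and between 137 and 143 without it, after the authors' scaling to a common trimmed mean. The ratio of 3' to 5' ACTB signal, a sign of RNA quality, was 1.95 and 2.04 on the shFOXO707 arrays with OHT and 1.49 to 1.74 on the other 12. The same ratio for GAPDH was 1.04 and 1.11 on those arrays and 0.983 to 1.10 on the other 12. The part of RNA quality in the shFOXO707 results was not tested. Of the osteoblast and osteosarcoma markers on the array 8 of 10 passed the filter (RUNX2 and IBSP did not), and none of 6 blood cell or 4 endothelial markers did. Of 6 epithelial markers 3 passed (KRT8, KRT18 and EPCAM), and of 5 neural markers 2 did (NEFL and OLIG2). In bulk RNA, fewer cells of a kind and less RNA per cell cannot be told apart.

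OHT raised both tyrosine kinase receptors in scrambled cells. INSR (213792_s_at) had signals of 576, 524, 508 and 548 with OHT, against 248, 213, 234 and 219 without it, and the groups did not overlap. Its difference was 1.18 ± 0.08 (SE) on the log2(signal + 16) scale, which all differences below use, or 2.27-fold, with limma's adjusted p = 2.12e-09. IGF1R (203627_at) had 3238, 2932, 2743 and 2738 with OHT, against 1334, 1449, 1416 and 1447 without, a difference of 1.03 ± 0.06 (SE) (limma, adjusted p = 9.08e-11). That is a 2.05-fold rise with no overlap between the groups. The second IGF1R probe set, 203628_at, rose by 0.84 (limma, adjusted p = 6.21e-06). Over all probe sets the median difference with OHT was -0.20 in scrambled cells, so relative to that median the rises were 1.38 for INSR and 1.23 and 1.04 for IGF1R. INSR and the 203627_at probe set of IGF1R kept their calls in all 24 alternative fits, and 203628_at in all 23 that could be made.

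**Figure D1:**
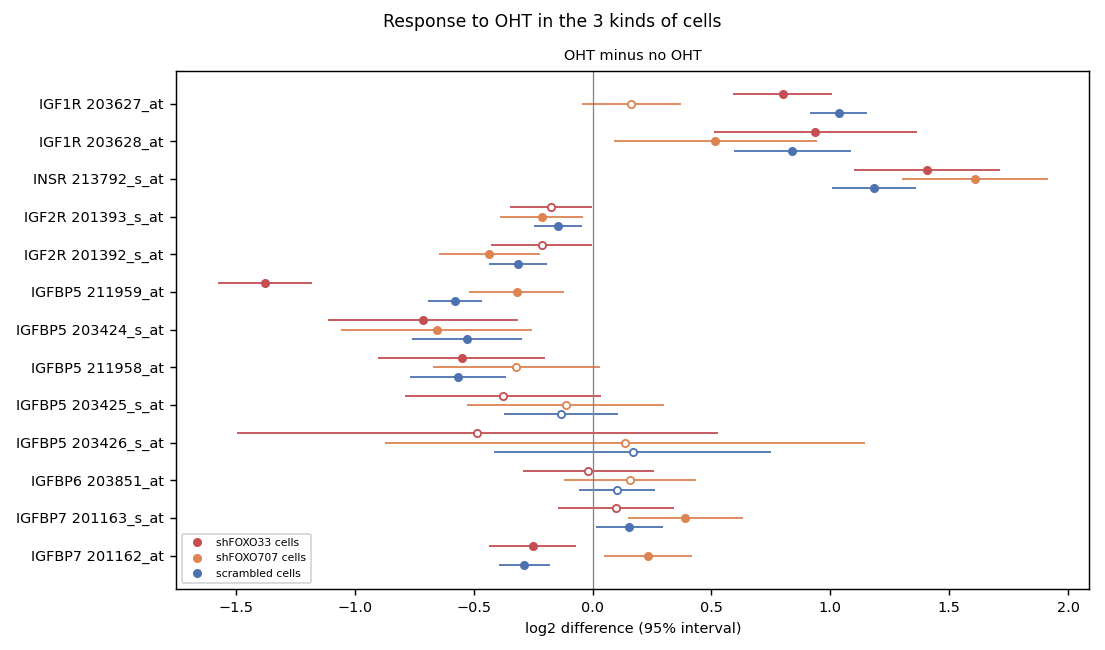
Response to OHT (OHT minus no OHT) of the 13 probe sets above the filter, as a log2 difference on the x axis with its 95% interval; filled points passed an adjusted p of 0.05 in limma and open ones did not. The points of INSR lie at 1.41, 1.61 and 1.18 in shFOXO33, shFOXO707 and scrambled cells, while IGF1R 203627_at lies at 0.80, 0.16 and 1.03.

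Among all 13 tested probe sets, 10 passed the test with OHT in scrambled cells, 4 higher and 6 lower, where 79.6% of all 11438 probe sets did, 28.3% higher and 51.3% lower. With each array centred on its own median the split was 5 higher and 3 lower for these genes, and 4471 higher and 4021 lower over all probe sets, against 3239 and 5866 without centring. In shFOXO33 cells 7 of 13 passed (3 higher, 4 lower; background 58.1%, 21.4% higher and 36.7% lower), and in shFOXO707 cells 8 of 13 (4 higher, 4 lower; background 60.5%, 22.7% higher and 37.8% lower), each with 1 array without OHT, which is assumed to vary like the other groups. After centring, the splits were 4 higher and 2 lower in shFOXO33 cells, where 3401 of all probe sets were higher and 2644 lower, and 6 higher and 0 lower in shFOXO707 cells, where 3692 were higher and 2472 lower. Each share lies near its background and is no result about these genes as a group. In scrambled cells the 4 higher with OHT were INSR, both of IGF1R and 1 of IGFBP7, and the 6 lower were both of IGF2R, 3 of IGFBP5 and 1 of IGFBP7.

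Under OHT, IGF1R was lower with both hairpins in probe set 203627_at, and lower with shFOXO707 than with shFOXO33. The shFOXO33 arrays with OHT had 2135 and 2229.6 for 203627_at and the shFOXO707 arrays 1359 and 1215, against 3238, 2932, 2743 and 2738 in scrambled cells with OHT. The 3 groups did not overlap, and the shFOXO707 arrays lay within the range of the scrambled arrays without OHT or below it (1334, 1449, 1416 and 1447). Without OHT the single arrays had 1246 with shFOXO33 and 1145 with shFOXO707, both below all 4 scrambled arrays. The difference from scrambled cells with OHT was -0.41 ± 0.07 (SE) for shFOXO33 and -1.17 ± 0.07 (SE) for shFOXO707 (limma, adjusted p = 0.000171 and 4.09e-09). In fold terms IGF1R was 1.33-fold lower with shFOXO33 and 2.25-fold lower with shFOXO707. Without OHT the differences were -0.18 (95% interval, here as below not adjusted, -0.37 to 0.01, limma adjusted p = 0.16) and -0.30 (adjusted p = 0.0231, which became 0.0576 with a constant variance prior).

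The response to OHT itself differed between shFOXO707 and scrambled cells in IGF1R probe set 203627_at, and in 203628_at it did not differ beyond the test. The 203627_at signal rose by 0.80 with OHT in shFOXO33 cells (limma, adjusted p = 4.43e-06), while its difference in shFOXO707 cells was 0.16 (95% interval -0.04 to 0.37, adjusted p = 0.16). After centring each array, that shFOXO707 difference was 0.41 with an adjusted p of 0.00239. The interaction, the response in hairpin cells minus that in scrambled cells, was -0.87 ± 0.11 (SE) for shFOXO707 (limma, adjusted p = 0.000446) and -0.23 ± 0.11 (SE) for shFOXO33 (adjusted p = 0.267). For 203628_at the interactions were -0.32 with shFOXO707 (95% interval -0.82 to 0.17, limma adjusted p = 0.483) and 0.10 with shFOXO33 (-0.40 to 0.59, adjusted p = 0.863). Of the 13 probe sets, 2 had a called interaction with shFOXO707, 1 above and 1 below 0, where 5.01% of all probe sets did, 2.49% above and 2.52% below. With shFOXO33 1 did, below 0, where 5.71% of all did, 2.55% above and 3.16% below.

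In the other IGF1R probe set the shFOXO707 difference passed and the shFOXO33 difference did not. For 203628_at the arrays with OHT had 586 and 670.1 with shFOXO33 and 297 and 444 with shFOXO707, against 723, 604, 502 and 621 in scrambled cells. The shFOXO33 arrays lay inside the scrambled range and the shFOXO707 arrays below it. The differences were 0.04 (95% interval -0.26 to 0.35, limma adjusted p = 0.824) and -0.72 ± 0.14 (SE) (adjusted p = 0.000901). Without the first shFOXO707 array with OHT the shFOXO707 difference was -0.44 (adjusted p = 0.0405). Over the 14 arrays the IGF1R probe sets correlated at r = 0.892. Its response to OHT was 0.94 in shFOXO33 cells (limma, adjusted p = 0.000897) and 0.52 in shFOXO707 cells (adjusted p = 0.0367); without the first shFOXO707 array with OHT this shFOXO707 response was 0.79 (adjusted p = 0.0025), and without the second it was 0.24 with an adjusted p of 0.308, and the call was also lost without the filter (0.0614) and with a constant variance prior (0.0618). Without OHT the 203628_at differences were -0.05 with shFOXO33 and -0.39 with shFOXO707 (adjusted p = 0.86 and 0.136; the shFOXO707 value passed in a fit of only the arrays compared, 0.0474). Set against each other with OHT, shFOXO707 minus shFOXO33 was -0.76 and -0.76 for 203627_at and 203628_at (limma, adjusted p = 1.56e-06 and 0.00153), and -0.48 for 203628_at without the first shFOXO707 array (adjusted p = 0.0333).

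INSR, the insulin receptor, also rose with OHT under both hairpins. Its signals were 470.4 and 467 in shFOXO33 cells and 564 and 732 in shFOXO707 cells with OHT, against 576, 524, 508 and 548 in scrambled cells with OHT. Without OHT they were 167 with shFOXO33 and 200.2 with shFOXO707, against 248, 213, 234 and 219 in scrambled cells. Every array with OHT was above every array without it. OHT raised INSR by 1.41 ± 0.14 (SE) in shFOXO33 cells and 1.61 ± 0.14 (SE) in shFOXO707 cells (limma, adjusted p = 6.53e-07 and 1.45e-07). The interactions were 0.22 (95% interval -0.13 to 0.58, limma adjusted p = 0.495) and 0.43 (0.07 to 0.78, adjusted p = 0.165), and neither passed the test.

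Set against scrambled cells in the same OHT state, INSR differed beyond the test in 1 of 4 comparisons. With OHT the differences from scrambled cells were -0.19 with shFOXO33 (95% interval -0.41 to 0.02, limma adjusted p = 0.134) and 0.25 with shFOXO707 (0.03 to 0.47, adjusted p = 0.0645). Without the first shFOXO707 array with OHT, the shFOXO707 difference was 0.43 with an adjusted p of 0.0105, and without the second it was 0.07 with an adjusted p of 0.709. Without OHT, INSR fell by 0.42 with shFOXO33 (limma, adjusted p = 0.0268, but 0.0637 in a fit of only the arrays compared), and with shFOXO707 the difference was -0.18 (adjusted p = 0.367). With OHT, INSR was 0.44 higher with shFOXO707 than with shFOXO33 (limma, adjusted p = 0.00683), a call lost without the second shFOXO707 array (difference 0.26, adjusted p = 0.129).

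**Figure D2:**
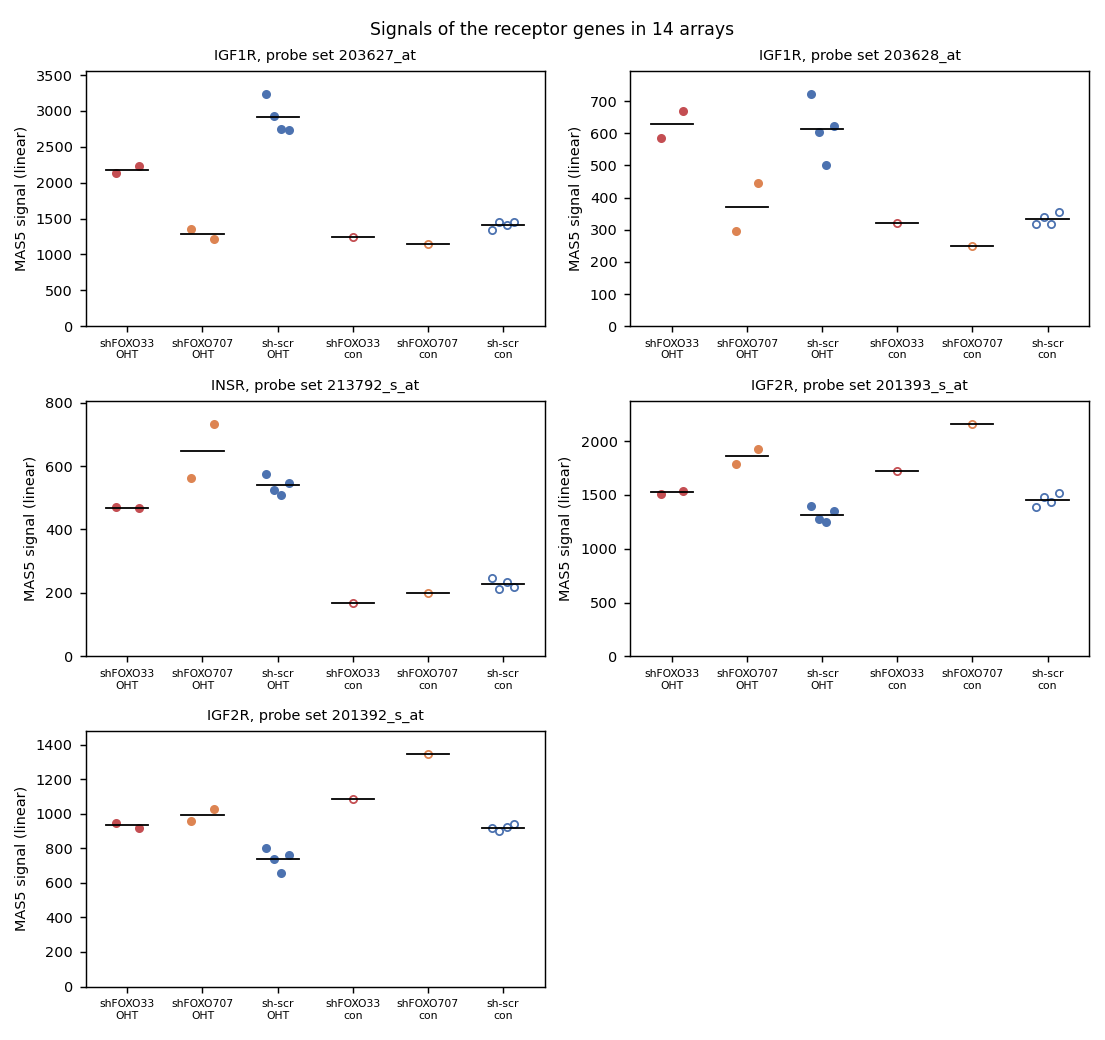
Deposited MAS5 signal (linear, y axis) of the 5 receptor probe sets above the filter on each array, filled with OHT and open without; horizontal lines are group means. IGF1R 203627_at lies at 1359 and 1215 in shFOXO707 cells with OHT, against 3238, 2932, 2743 and 2738 in scrambled cells with OHT, while the INSR signals with OHT all lie above those without it.

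IGF2R, the mannose 6-phosphate receptor, was higher with both hairpins. Under OHT 201393_s_at had 1512 and 1541 in shFOXO33 cells and 1791 and 1932 in shFOXO707 cells, against 1393, 1278, 1246 and 1348 in scrambled cells, with no overlap. The single arrays without OHT had 1724 with shFOXO33 and 2159 with shFOXO707, against 1389, 1478, 1438 and 1517 in scrambled cells. The difference with OHT was 0.21 ± 0.06 (SE) for shFOXO33 and 0.50 ± 0.06 (SE) for shFOXO707 (limma, adjusted p = 0.00691 and 6.92e-06); the shFOXO33 call was lost without its second array (adjusted p = 0.0593). The other probe set, 201392_s_at, had 946 and 919 in shFOXO33 cells and 957 and 1028 in shFOXO707 cells with OHT, against 802, 739, 656 and 763 in scrambled cells. It rose by 0.33 and 0.42 (limma, adjusted p = 0.00127 and 0.000238).

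Without OHT, IGF2R was 0.56 and 0.54 higher with shFOXO707 in 201393_s_at and 201392_s_at (limma, adjusted p = 4.21e-05 and 0.00041). With shFOXO33 201393_s_at was 0.24 higher (adjusted p = 0.0234, but 0.0516 with a constant variance prior) and 201392_s_at differed by 0.23 (adjusted p = 0.0722, but 0.0347 without the third scrambled array with OHT). OHT lowered IGF2R in scrambled cells by 0.31 in 201392_s_at and 0.14 in 201393_s_at (limma, adjusted p = 0.000126 and 0.0109). Those values lie close to the median of all probe sets: after centring each array they were -0.09 and 0.08, and neither passed (adjusted p = 0.178 and 0.143). In shFOXO707 cells the OHT differences of -0.43 and -0.21 (adjusted p = 0.00157 and 0.034) became -0.19 and 0.03 after centring (adjusted p = 0.11 and 0.805), and in shFOXO33 cells they were -0.21 and -0.17 (limma, adjusted p = 0.0785 and 0.0789). Leaving out 1 array moved 2 of these calls: 201393_s_at in shFOXO707 cells had 0.158 without the first shFOXO707 array with OHT, and 201392_s_at in shFOXO33 cells had 0.0389 without the third scrambled array with OHT (adjusted p).

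IGFBP5, the binding protein prominent in bone, was lower with shFOXO33 and higher with shFOXO707 in probe set 211959_at. It had 165 and 184 in shFOXO33 cells and 1577 and 1696 in shFOXO707 cells with OHT, against 1018, 992, 956 and 1038 in scrambled cells. Without OHT it had 478 with shFOXO33 and 2043 with shFOXO707, against 1583, 1553, 1441 and 1435 in scrambled cells. In both states the shFOXO33 arrays lay below and the shFOXO707 arrays above all scrambled arrays.

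With OHT the 211959_at signal of IGFBP5 was 5.34-fold lower with shFOXO33, a difference of -2.42 ± 0.07 (SE), and 1.62-fold higher with shFOXO707, 0.70 ± 0.07 (SE) (limma, adjusted p = 4.04e-13 and 7.57e-07). Without OHT the differences were -1.62 and 0.44 (limma, adjusted p = 2.31e-09 and 0.00124). The hairpins differed directly with OHT by 3.12 ± 0.08 (SE), 8.68-fold higher with shFOXO707 than with shFOXO33 (limma, adjusted p = 8.81e-14). Since a fit that pools the hairpins averages opposite changes, it gave -0.86 for IGFBP5 with OHT and -0.59 without (adjusted p = 0.385 and 0.736).

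Probe set 203424_s_at of IGFBP5 was also lowest with shFOXO33. It had 95.2 and 73.0 with shFOXO33 and 413 and 354 with shFOXO707 under OHT, against 278, 308, 331 and 358 in scrambled cells, where the shFOXO707 and scrambled arrays overlapped. Without OHT it had 147 and 611 for shFOXO33 and shFOXO707, against 381, 499.5, 484 and 502 for the scrambled hairpin. Without OHT the differences for shFOXO33 were -1.56, -0.80, -0.27 and -0.51 for 203424_s_at, 211958_at, 203425_s_at and 203426_s_at, of which the first pair passed (limma, adjusted p = 6.53e-06, 0.00093, 0.29 and 0.415). For shFOXO707 without OHT they were 0.39, 0.26, 0.30 and 0.28, and none passed (adjusted p = 0.117, 0.233, 0.238 and 0.688).

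The other 4 IGFBP5 probe sets, which measure the same gene and are not independent of 211959_at (r of 0.590 to 0.966 among the 5), were also lower with shFOXO33 under OHT. The differences were -1.74, -0.78, -0.51 and -1.16 for 203424_s_at, 211958_at, 203425_s_at and 203426_s_at (limma, adjusted p = 4.51e-08, 5.32e-05, 0.00648 and 0.00988). Both calls of the last pair were lost without the first shFOXO33 array with OHT, which leaves 1 such array. The differences were then -0.40 for 203425_s_at and -0.57 for 203426_s_at. For 203425_s_at both shFOXO33 arrays with OHT, at 95.5 and 113, lay below the scrambled arrays with OHT, at 176, 139, 154 and 153. The 203426_s_at signals were dim. Its shFOXO33 arrays with OHT had 22.8 and 72.3, both below 79.1, the signal at which the filter was set. Scrambled arrays with OHT had 142, 78.1, 110 and 142 in that probe set. For shFOXO707 under OHT, 211958_at rose by 0.50 (limma, adjusted p = 0.00281), and 203424_s_at, 203425_s_at and 203426_s_at had 0.26, 0.32 and 0.25 (adjusted p = 0.143, 0.0741 and 0.596). The 203425_s_at value passed without the first scrambled array with OHT (adjusted p = 0.0494). All 5 probe sets were higher with shFOXO707 than with shFOXO33 under OHT, the other 4 by 2.0, 1.29, 0.83 and 1.41 in the same order (limma, adjusted p = 4.50e-08, 1.36e-06, 0.000544 and 0.00823). The call of 203426_s_at was lost without the first shFOXO33 array or without the second shFOXO707 array (adjusted p = 0.142 and 0.106).

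OHT lowered IGFBP5 in 3 of its 5 probe sets in shFOXO33 cells, 2 in shFOXO707 cells and 3 in scrambled cells. Of all probe sets, 36.7%, 37.8% and 51.3% were called lower in the same order, while these 5 all measure IGFBP5. In 211959_at it fell by 1.38 in shFOXO33 cells, 0.32 in shFOXO707 cells and 0.58 in scrambled cells (limma, adjusted p = 5.89e-09, 0.00818 and 6.54e-08), which is -1.20, -0.14 and -0.38 relative to each median of all probe sets. After centring each array the shFOXO707 value was -0.08 (adjusted p = 0.501). The fall was deeper with shFOXO33 than with the scrambled hairpin by an interaction of -0.80 ± 0.11 (SE) in this probe set (limma, adjusted p = 0.000681), and the shFOXO707 interaction was 0.26 (95% interval 0.03 to 0.49, adjusted p = 0.195). The shFOXO33 interaction did not pass in the other 4, at -0.19, 0.01, -0.24 and -0.65 for 203424_s_at, 211958_at, 203425_s_at and 203426_s_at (limma, adjusted p = 0.692, 0.982, 0.602 and 0.558). In scrambled cells 203424_s_at and 211958_at fell with OHT too, by 0.53 and 0.56 (limma, adjusted p = 0.000355 and 5.00e-05), while 203425_s_at and 203426_s_at had -0.13 and 0.17 (adjusted p = 0.284 and 0.577). In shFOXO33 cells 203424_s_at and 211958_at fell with OHT by 0.71 and 0.55 (limma, adjusted p = 0.00421 and 0.00929), and the call of 211958_at was lost after centring (0.0893) and without the second shFOXO33 array with OHT (0.0567); 203425_s_at and 203426_s_at had -0.38 and -0.48 (adjusted p = 0.109 and 0.397). In shFOXO707 cells 203424_s_at fell by 0.65 (limma, adjusted p = 0.00725, but 0.0878 after centring), while 211958_at, 203425_s_at and 203426_s_at had -0.32, -0.11 and 0.14 (adjusted p = 0.105, 0.636 and 0.82).

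IGFBP6, which prefers IGF2, was lower with shFOXO33. Its signals (203851_at) were 303 and 323 in shFOXO33 cells and 478 and 406 in shFOXO707 cells with OHT, against 469, 420.1, 478 and 442 in scrambled cells. Without OHT they were 317 with shFOXO33 and 394 with shFOXO707, against 401, 459, 430.0 and 392 in scrambled cells. The shFOXO33 arrays lay below every other array in both states. The difference for shFOXO33 was -0.51 ± 0.09 (SE) with OHT and -0.39 without (limma, adjusted p = 0.000316 and 0.0227), and for shFOXO707 -0.03 (95% interval -0.23 to 0.16) and -0.09 (-0.34 to 0.16), with adjusted p = 0.798 and 0.637. With OHT it was 0.47 higher with shFOXO707 than with shFOXO33 (limma, adjusted p = 0.00199). OHT gave 0.10 in scrambled cells (adjusted p = 0.219), which was 0.33 after centring each array (adjusted p = 0.00111) and 0.27 after quantile normalization (adjusted p = 0.00416). In shFOXO33 and shFOXO707 cells OHT gave -0.02 and 0.16 (adjusted p = 0.916 and 0.309), and the shFOXO707 value was 0.40 after centring (adjusted p = 0.0186).

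IGFBP7, the low-affinity binding protein, was lower with both hairpins in both states. In 201163_s_at the arrays with OHT had 823 and 832 with shFOXO33 and 851 and 1087 with shFOXO707, against 1397, 1488, 1509 and 1486 with the scrambled hairpin. Without OHT they had 772 and 730.2 for shFOXO33 and shFOXO707, against 1256, 1371, 1253 and 1399 for the scrambled hairpin. No shFOXO33 or shFOXO707 array reached the scrambled range. The differences were -0.82 ± 0.08 (SE) and -0.60 ± 0.08 (SE) with OHT (limma, adjusted p = 8.05e-07 and 2.81e-05), and -0.76 and -0.84 without (adjusted p = 5.85e-05 and 2.36e-05).

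The second IGFBP7 probe set, 201162_at, had 864 and 789 in shFOXO33 cells and 884 and 826 in shFOXO707 cells with OHT, against 1082, 1066, 1096 and 1102 in scrambled cells. Without OHT it had 986 and 725 for shFOXO33 and shFOXO707, against 1363, 1238, 1389.9 and 1329 for the scrambled hairpin. Its differences were -0.39 and -0.34 with OHT and -0.42 and -0.86 without (limma, adjusted p = 9.01e-05, 0.000399, 0.000841 and 1.16e-06). Neither probe set differed between the hairpins with OHT beyond the test, at 0.05 (95% interval -0.10 to 0.20, limma adjusted p = 0.612) for 201162_at and 0.21 (0.01 to 0.41, adjusted p = 0.0803) for 201163_s_at. Without the first shFOXO707 array with OHT, 201163_s_at differed by 0.39 (adjusted p = 0.00298), and without the second by 0.04 (adjusted p = 0.773).

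The IGFBP7 probe sets disagreed on OHT. In scrambled cells 201162_at fell by 0.29 (limma, adjusted p = 7.05e-05, with an adjusted p of 0.29 after centring each array) and 201163_s_at rose by 0.15 (adjusted p = 0.0417, which was lost in 8 of 24 alternative fits, 5 of them leaving out 1 scrambled array, with adjusted p of 0.0598 to 0.109). In shFOXO707 cells they rose by 0.23 and 0.39 (limma, adjusted p = 0.029 and 0.00811). Those calls were lost without the first shFOXO707 array with OHT for 201162_at (adjusted p = 0.125) and without the second for 201163_s_at (0.082). In shFOXO33 cells the values were -0.25 and 0.10 (adjusted p = 0.0203 and 0.474); the first was lost without the second shFOXO33 array with OHT (adjusted p = 0.119) and after centring (0.711), while after centring the second was 0.31 and passed (0.0415). The shFOXO707 interaction of 201162_at was 0.52 ± 0.10 (SE) (limma, adjusted p = 0.00715) and that of 201163_s_at 0.24 (adjusted p = 0.353). Over the 14 arrays the probe sets correlated at r = 0.746.

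**Figure D3:**
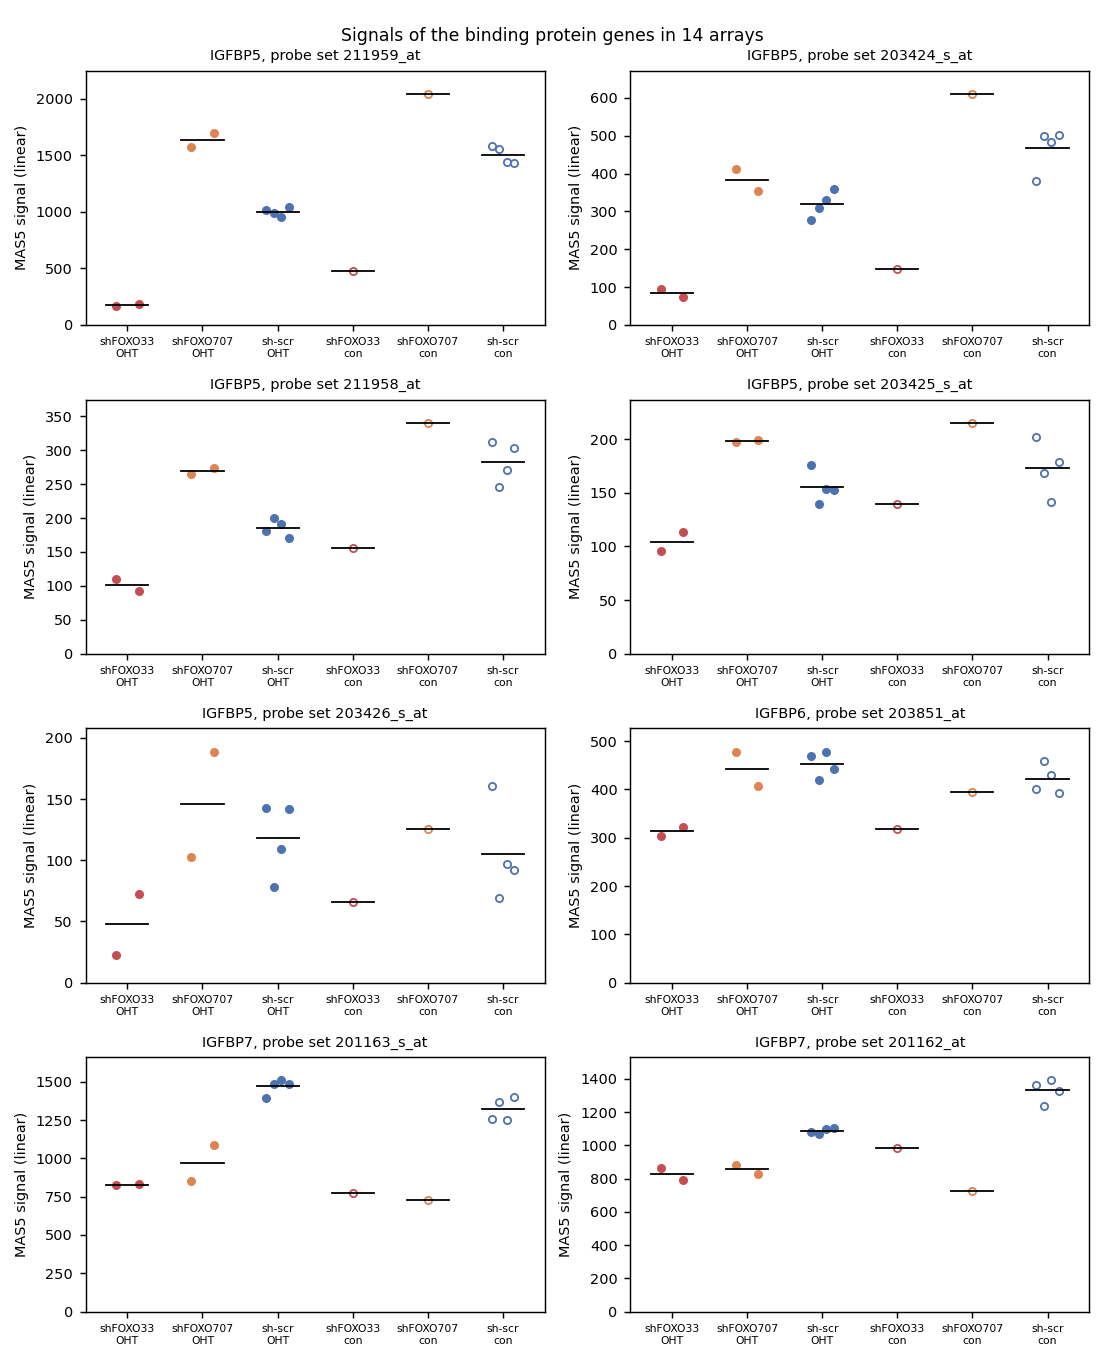
Deposited MAS5 signal (linear, y axis) of the 8 binding protein probe sets above the filter on each array, filled with OHT and open without; horizontal lines are group means. IGFBP5 211959_at lies at 165 and 184 in shFOXO33 cells and 1577 and 1696 in shFOXO707 cells, against 1018, 992, 956 and 1038 in scrambled cells, all with OHT.

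Counted per hairpin, 11 of the 13 probe sets passed with shFOXO33 under OHT, 2 higher and 9 lower, where 46.9% of all probe sets passed, 25.8% higher and 21.2% lower. With shFOXO707 under OHT 8 of 13 passed, 4 higher and 4 lower, against a background of 39.4%, 22.0% higher and 17.3% lower. Without OHT 8 passed with shFOXO33 (1 higher, 7 lower; background 27.9%, 13.4% higher and 14.5% lower) and 6 with shFOXO707 (3 higher, 3 lower; background 25.3%, 12.8% higher and 12.5% lower). The median difference of the 13 was -0.51 and 0.25 for shFOXO33 and shFOXO707 with OHT and -0.42 and 0.26 without, where the medians of all probe sets lay between 0.02 and 0.05. IGFBP5 supplies 5 of the 13, so these counts weigh it most; by the highest probe set of each gene, 5 of 6 genes passed with shFOXO33 under OHT and 4 of 6 with shFOXO707, where 48.9% and 41.2% of all genes did. Between the hairpins under OHT 10 of 13 probe sets passed, 8 higher with shFOXO707 and 2 lower, where 41.4% of all did, 20.7% higher and 20.7% lower. The hairpin comparisons in one OHT state share their scrambled arrays, so the values are set side by side and no overlap between them was tested.

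**Figure D4:**
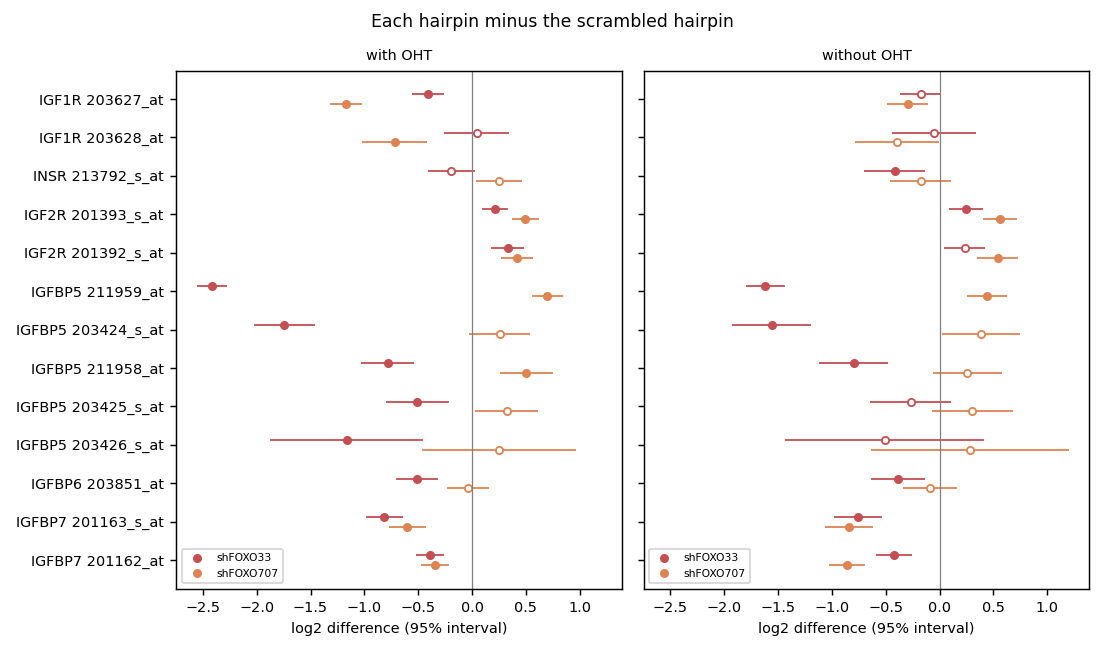
Difference of each hairpin from the scrambled hairpin for the 13 probe sets above the filter, with OHT (left) and without it (right), as a log2 difference on the x axis with its 95% interval; filled points passed an adjusted p of 0.05 in limma. With OHT, IGFBP5 211959_at lies at -2.42 for shFOXO33 and 0.70 for shFOXO707, and both points of IGFBP7 201163_s_at lie below 0.

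The 7 probe sets below the filter, which sets the mean over all arrays against a signal of 79.1, exceeded that signal once, in an IGFBP3 probe set on 1 shFOXO33 array with OHT. The signals of IGFBP2, a binding protein of fetal tissue, ran between 1.44 and 20.4, and those of IGFBP4, which the protease PAPPA cleaves, between 2.61 and 16.7. IGFBP3, the main IGF carrier in serum, had 25.7 to 76.9 in one probe set and 21.1 to 82.0 in the other. The third IGF1R probe set (208441_at) ranged between 28.4 and 51.6, the second of INSR (207851_s_at) between 3.53 and 41.9, and the third of IGFBP7 (213910_at) between 0.970 and 26.4. Fitted without the filter, 1 of the 7 passed limma's test with OHT in scrambled cells, IGFBP7 213910_at at -1.08 (adjusted p = 0.00116), where 54.9% of all 19064 probe sets passed. None of the 7 passed in any of the other 9 contrasts, where 0 to 2 had an unadjusted p under 0.05 and 2.19% to 37.5% of all probe sets passed. A dim signal here sets no level, since detection calls were not used.

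Other genes of the pathway were counted in 5 lists, each gene by its highest probe set. With OHT in scrambled cells 81.2% of 7720 genes passed, 27.3% higher and 53.9% lower. With OHT, 27.5% were higher and 21.4% lower in shFOXO33 than in scrambled cells, and 24.3% and 16.9% in shFOXO707 cells.

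Of 16 ligands and genes that control IGF availability, 15 had a probe set that names no other gene and 6 passed the filter; IGF1 and INS did not pass, and IGF2 was not analysed here. With OHT in scrambled cells 2 were higher and 2 lower (3 and 1 after centring); with OHT 2 were higher and 1 lower in shFOXO33 cells, and 3 higher and 0 lower in shFOXO707 cells (limma). FURIN, a protease that processes IGF and receptor precursors, rose by 1.02 with OHT in scrambled cells (adjusted p = 1.48e-08) and was 0.73 and 0.64 higher with shFOXO33 and shFOXO707 under OHT (adjusted p = 3.54e-05 and 0.000158). ADAM12, a protease that cuts IGFBP3 and IGFBP5, was 0.80 and 0.73 higher (adjusted p = 1.82e-05 and 5.99e-05). HTRA1, which also degrades IGFBP5, fell by 0.75 with shFOXO33 (adjusted p = 1.38e-05) and had -0.16 with shFOXO707 (adjusted p = 0.205). PLAU, the urokinase plasminogen activator, fell by 1.72 with OHT in scrambled cells (adjusted p = 7.36e-12) and had -0.04 with shFOXO33 (adjusted p = 0.758) and a rise of 0.48 with shFOXO707 under OHT (adjusted p = 0.000737).

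Of 24 receptor-proximal adaptors and inhibitors 22 had a probe set of their own and 19 passed the filter. With OHT in scrambled cells 9 were higher and 6 lower (10 and 4 after centring), with shFOXO33 under OHT 2 were higher and 8 lower, and with shFOXO707 1 was higher and 2 lower (1 and 5 after centring). SOCS3, a feedback inhibitor of receptor signalling, averaged 443 ± 31.9 (SD, n = 4) with OHT in scrambled cells, against 89.1 ± 19.0 (SD, n = 4) without, a rise of 2.14 (limma, adjusted p = 1.03e-10). GRB10 and SH2B2, adaptors that bind both receptor kinases, rose by 1.10 and 1.15 (adjusted p = 3.52e-11 and 4.02e-09). PTPN11, a phosphatase that relays receptor signals, fell by 0.72 with OHT in scrambled cells (adjusted p = 9.68e-10). Under OHT PTPN11 had differences of -0.66 with shFOXO33 and 0.56 with shFOXO707 (adjusted p = 2.11e-07 and 2.27e-06), an opposite pair of signs like that of IGFBP5. GRB2, the adaptor that leads to RAS, had -0.94 and -0.23 (adjusted p = 1.76e-07 and 0.0343), and PTPN1, a phosphatase of INSR, 0.05 and -0.66 (adjusted p = 0.787 and 0.00123).

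The mannose 6-phosphate sorting list, which shares its pathway with IGF2R, held 10 genes, of which 9 had a probe set of their own, and all 9 passed the filter. With OHT in scrambled cells 2 were higher and 6 lower (3 and 6 after centring), with shFOXO33 under OHT 6 were higher and 0 lower (5 and 1 after centring), and with shFOXO707 4 were higher and 3 lower. PLAUR, the urokinase receptor and an IGF2R ligand, fell by 1.34 with OHT in scrambled cells (limma, adjusted p = 1.82e-10) and was 0.52 and 1.16 higher with shFOXO33 and shFOXO707 under OHT (adjusted p = 0.000333 and 1.46e-07). AP1G1, an adaptor subunit of the sorting vesicles, fell by 1.27 with OHT in scrambled cells (adjusted p = 2.49e-11), and GNPTAB, which begins the mannose 6-phosphate tag, rose by 0.85 (adjusted p = 1.27e-08). With shFOXO707 under OHT GNPTAB fell by 1.29 (adjusted p = 1.34e-08), and with shFOXO33 its difference was -0.21 (adjusted p = 0.0524). PLIN3, described in retrieval of the receptor, fell by 0.88 with OHT in scrambled cells and had 0.29 and -0.23 with shFOXO33 and shFOXO707 under OHT (adjusted p = 2.32e-10, 0.00141 and 0.00811).

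Of 10 genes whose proteins share the IGFBP-like domain 9 had a probe set of their own and 5 passed the filter, and 1 was higher and 3 lower with OHT in scrambled cells (2 and 3 after centring). CCN2, a secreted matrix protein of this family, averaged 377 ± 47.9 (SD, n = 4) with OHT, against 4809 ± 344 (SD, n = 4) without, a difference of -3.62 (limma, adjusted p = 1.02e-15), and CCN1 and CCN3, related matrix proteins, fell by 1.39 and 0.75 (adjusted p = 3.63e-12 and 7.00e-05). With shFOXO33 under OHT 1 was higher and 0 lower, CCN2 at 0.36 (adjusted p = 0.00506). With shFOXO707 1 was higher and 2 lower, CCN3 at 0.52, CCN1 at -0.57 and CCN2 at -0.49 (adjusted p = 0.0162, 1.39e-05 and 0.000642). Of the 3 IGF2 mRNA-binding protein genes 2 had a probe set of their own and only IGF2BP2 passed the filter; it rose by 0.63 with OHT in scrambled cells (adjusted p = 1.67e-09) and had 0.07 and -0.06 with shFOXO33 and shFOXO707 under OHT (adjusted p = 0.281 and 0.437).

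The genes whose log2 values followed each gene most closely over the 14 arrays are given as a description, since arrays share treatment and scaling. For IGF1R these were SATB1, SERTAD2 and CD1D, at Pearson r of 0.979, 0.951 and 0.947. For INSR they were PLXNC1, SYNE2 and CCNE1, the cyclin E1 gene, at 0.987, 0.986 and 0.985. IGFBP5 was followed by COX7A2L, ATP5MC3 and PSMB5 at 0.991, 0.988 and 0.986, and IGFBP7 by TMX1, RTN2 and IFI6 at 0.966, 0.936 and 0.932. The values were 0.939, 0.929 and 0.929 for MFAP2, TGFB1 and MATN2 with IGF2R, and 0.937, 0.926 and 0.922 for TPI1, IL27RA and YES1 with IGFBP6.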

How the data were processed

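RNA of 14 U2OS ER-E2F1 samples was measured on 1 array each. The authors deposited linear intensity values, 1 per probe set and array, as MAS5 signals (per the submitters' processing notes, which give no version). The 2% trimmed mean of every array is 500 in the deposited intensity values, which sets MAS5 signals relative to each array's own total. No sample column was left unused.

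Of 22277 probe sets, 62 were array controls; 19064 of the others named 1 gene, 1043 named several and 2108 none. Symbols were updated through Entrez identifiers for 19052 with RefSeq genes of assembly GRCh38.p14. Signals were transformed as log2(signal + 16), so differences understate changes of dim genes, and probe sets whose mean lay above the 40th percentile of those naming 1 gene (a signal of 79.1) were kept, which left 11438. Groups came from the sample titles. limma 3.58.1 in R 4.3.3 (lmFit and eBayes, trend = TRUE) was fitted over all 14 arrays in 6 groups, with Benjamini-Hochberg adjustment over all 11438 and calls at an adjusted p under 0.05, two-sided; intervals are unadjusted 95% intervals. The FOXO1 and FOXO3 values came from a separate limma fit of the same design without the filter. That fit took every probe set other than the array controls, and its adjustment ran over all of those. The lone hairpin arrays without OHT were assumed to vary like the other groups. Arrays have no sequencing depth, and their number limits precision.

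Named were all probe sets of the 9 genes, FOXO1 and FOXO3, from each list the 4 genes with the smallest adjusted p with OHT in scrambled cells and the 2 with the smallest per hairpin with OHT, and the 3 most correlated genes; some of these are given only as counts. The genes, lists and tests were chosen with earlier results of these data known. The fit was tested on simulated data. Alternatives were median centring, quantile normalization, pseudocounts of 1 and 64, no filter, no trend, the highest probe set per gene, only the arrays compared, leaving out each array, a replicate block and pooled hairpins. Same-numbered arrays did not deviate together (r of -0.06 to 0.06), so the numbers were not taken to pair samples.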

Additional observations from a re-analysis of the deposited data

Results flagged for a closer look

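Dixon's test marked 1 array for each of 2 probe sets, both in scrambled cells without OHT. These were the highest IGFBP2 (202718_at) signal, 13.0, and the lowest IGFBP5 (203424_s_at) signal, 381. All 20 probe sets were tested in both scrambled groups of 4 arrays, and chance marks about 1 in 20 such sets of 4 values. IGFBP2 was below the filter.

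The OHT response differed between hairpin and scrambled cells, by a called interaction, for IGFBP5 211959_at with shFOXO33 (-0.80), IGF1R 203627_at with shFOXO707 (-0.87) and IGFBP7 201162_at with shFOXO707 (0.52). The effects of the hairpins under OHT differed from each other, shFOXO707 minus shFOXO33, by -0.76 for IGF1R 203627_at and -0.76 for 203628_at, by 0.44 for INSR 213792_s_at and by 0.28 for IGF2R 201393_s_at. For IGFBP5 the differences were 3.12 in 211959_at, 2.0 in 203424_s_at, 1.29 in 211958_at, 0.83 in 203425_s_at and 1.41 in 203426_s_at, and for IGFBP6 203851_at 0.47. The ratio of 3' to 5' ACTB signal was 1.95 and 2.04 on the shFOXO707 arrays with OHT and 1.60 and 1.63 on the shFOXO33 arrays with OHT; its part in these differences was not tested.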

How the results depend on the processing

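Over the 13 probe sets, 10 contrasts and all alternatives, 2894 values were compared with the first fit. The call and direction held in 2821, a call was lost in 53 and gained in 15, and 5 called values turned direction; 47 further sign changes concerned values that neither fit called. Of the 5, centring each array turned IGF2R 201393_s_at with OHT to 0.028 in shFOXO707 and 0.083 in scrambled cells, and pooling the hairpins turned IGFBP5 with shFOXO707 to -0.86 (211959_at) and -0.14 (211958_at) with OHT and -0.59 (211959_at) without. Pooling merges hairpins of opposite sign, by construction. By the highest probe set of each gene, which leaves 6 genes, the calls numbered 3, 4 and 5 with OHT in shFOXO33, shFOXO707 and scrambled cells, 5 and 4 with shFOXO33 and shFOXO707 under OHT, 5 with shFOXO33 without OHT, 5 between hairpins and 1 for the shFOXO707 interaction, where 61.4%, 63.4%, 81.4%, 49.4%, 41.8%, 29.4%, 43.5% and 6.37% of all 7720 genes passed in the same order. By the same fit IGF1R, IGF2R, IGFBP5 and IGFBP7 were called with shFOXO707 without OHT, and IGFBP5 for the shFOXO33 interaction. In those contrasts 27.6% and 7.22% of all 7720 genes passed. With hairpins pooled, 5 of the 13 passed with OHT, 4 without OHT and 0 for the interaction. Over all probe sets 2382, 798 and 38 passed with hairpins pooled. Without a trend in the variance prior 381 probe sets had a called shFOXO707 interaction, and leaving out each array gave 279 to 587, and 387 to 667 for shFOXO33; the cause was not tested. The replicate block on the 12 numbered arrays gave 10, 11, 8 and 10 calls among the 13, the same counts as without it. The order is OHT in scrambled cells, shFOXO33 with OHT, shFOXO707 with OHT and the hairpin difference. In the first fit 79.6%, 46.9%, 39.4% and 41.4% of all probe sets passed in that order. Shares of all probe sets for the block fit are not given here. The single hairpin arrays without OHT and the pairs with OHT limit what can be said per hairpin.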
